A study of Caenorhabditis elegans with 2 samples.

Results

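The large subunit ribosomal protein genes were the 47 protein-coding genes named rpl-* among the 19985 protein-coding genes of the Caenorhabditis elegans annotation (Ensembl release 115 on WBcel235, whose coordinates are those of ce11). At each of them, the occupancy of SNPC-1.1 (C06A8.2), a relative in worms of one of the proteins of SNAPc (small nuclear RNA activating protein complex), was read from chromatin immunoprecipitation followed by sequencing (ChIP-seq). The samples were 2 biological replicates of 1 group: whole young adult hermaphrodites of strain YL482, carrying SNPC-1.1 with GFP and FLAG at its C terminus, precipitated with an antibody against GFP. The labels describe the tagged gene as an insertion and as stably expressed, and the promoter that drives it is not given in the sources used here. A control is named in the labels and was not analysed here, and there was no second genotype, so no comparison between conditions was possible. In whole animals, strong occupancy in a few cells and weak occupancy in many cannot be told apart. The deposited lists held 1500 reproducible peaks, 30000 regions called on the pooled replicates, 29523 regions in replicate 1 and 26195 in replicate 2. A gene was counted when a summit, the position of highest signal in a region, lay within 500 bp of its annotated 5′ end. Where several summits qualified, the one with the highest signal stood for the gene. Depth is unknown, since no read totals are listed. The signal of a region is the authors' own score, of unstated scale, and it was compared only within a list.

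The large ribosomal subunit joins amino acids into protein, and its proteins are made from genes that RNA polymerase II transcribes at high rates in growing animals. Some of these proteins lie near the catalytic centre (RPL-3, RPL-10), some line the tunnel through which the new chain leaves or surround its exit (RPL-4, RPL-17, RPL-19, RPL-26, RPL-31, RPL-35, RPL-39), RPL-5 and RPL-11 hold the 5S ribosomal RNA, and RPL-12 sits at the base of the stalk that recruits translation factors. SNAPc is known in animals for the promoters of small nuclear RNA genes, and in worms also for genes of spliced leader RNAs and piRNAs. Many worm messenger RNAs, those of ribosomal proteins included, receive their first bases from a spliced leader by trans-splicing, so that the annotated 5′ end of such a gene is often the splice acceptor and lies downstream of where transcription begins.

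The sequences under the summits of 8 members are shown because they carry the 5 highest reproducible peaks of the group (rpl-15, rpl-20, rpl-3, rpl-35 and rpl-22) or hold several of the words that recur at these peaks (rpl-29, rpl-26 and rpl-6). Each window spans 50 bases on either side of the summit, was read from the RefSeq assembly of WBcel235 (ce11), and is written 5′ to 3′ on the strand of the gene. Capitals mark the 10 words of 8 bases that were found at the most reproducible peaks of this group.
rpl-15 summit window, chrIV:654886-654986, - strand: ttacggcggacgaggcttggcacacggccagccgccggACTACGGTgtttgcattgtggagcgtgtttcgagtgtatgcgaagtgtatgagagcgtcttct
rpl-20 summit window, chrIV:4750011-4750111, - strand: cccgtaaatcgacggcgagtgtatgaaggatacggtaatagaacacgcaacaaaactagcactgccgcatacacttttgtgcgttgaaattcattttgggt
rpl-3 summit window, chrIII:3867531-3867631, + strand: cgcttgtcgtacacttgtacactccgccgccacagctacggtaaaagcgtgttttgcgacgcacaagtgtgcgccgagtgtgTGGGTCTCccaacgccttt
rpl-35 summit window, chrIII:7854646-7854746, + strand: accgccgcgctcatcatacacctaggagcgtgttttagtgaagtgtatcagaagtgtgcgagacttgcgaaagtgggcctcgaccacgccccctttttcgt
rpl-22 summit window, chrII:5055334-5055434, + strand: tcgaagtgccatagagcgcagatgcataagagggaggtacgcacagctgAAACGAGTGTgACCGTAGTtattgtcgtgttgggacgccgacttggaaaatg
rpl-29 summit window, chrIV:13881938-13882038, + strand: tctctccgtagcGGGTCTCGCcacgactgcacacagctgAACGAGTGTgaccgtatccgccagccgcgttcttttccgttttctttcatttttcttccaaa
rpl-26 summit window, chrII:8602489-8602589, + strand: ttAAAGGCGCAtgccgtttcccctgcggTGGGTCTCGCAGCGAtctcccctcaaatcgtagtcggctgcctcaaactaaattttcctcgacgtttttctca
rpl-6 summit window, chrIII:7208046-7208146, + strand: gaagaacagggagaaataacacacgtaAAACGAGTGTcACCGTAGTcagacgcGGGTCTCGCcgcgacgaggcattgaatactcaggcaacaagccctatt
The start windows of 3 of them show the 20 bases before and the first 10 bases of the annotated gene, with capitals at TTTCAG, the letters of the worm splice acceptor.
rpl-15 start window, chrIV:654567-654596, - strand: tctaaccttttttcTTTCAGaaaacatggg
rpl-20 start window, chrIV:4749769-4749798, - strand: atcatatttttgttTTTCAGggttaaaaca
rpl-3 start window, chrIII:3867834-3867863, + strand: gtaaaattaatattTTTCAGggtacaacaa
Runs such as TGGGTCTCGCAGCGA at rpl-26 and GGGTCTCGC at rpl-29 and rpl-6 share letters, whereas no such word lay under the summits of rpl-20 and rpl-35. In all 3 start windows the acceptor letters ended at the base before the annotated start.

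SNPC-1.1 was found at the starts of about every other large subunit gene. Of the 47 genes, 24 had a reproducible peak, or 51.1% (exact 95% interval 36.1 to 65.9%), against 4.25% of all protein-coding genes. In the pooled list 45 of the 47 had a region, against a background of 37.7%. Within 200 bp the count was 4 of 47 (8.51%, against 1.96% of all protein-coding genes). It was 14 when each peak was given only to its nearest start. The share of all protein-coding genes was not counted under that rule, so the 14 cannot be set against 4.25%. Whether the same places are also occupied in a control or by unrelated factors was not tested. The intervals cover counting error only, and genes of 1 pathway are not independent draws. Among the other genes of the translation apparatus, the small subunit genes (rps) had reproducible peaks at 20 of 31 (64.5%, 45.4 to 80.8%). The highest of these were rps-19 with a signal of 208, rps-20 with 184 and rps-25 with 172. None of the 3 genes for the acidic stalk proteins (rla), which are large subunit proteins under another gene name, had a reproducible peak, and all 3 had a pooled region. Genes for the mitochondrial ribosome had fewer, with 3 of 41 for its large subunit (7.32%, mrpl-17 highest at 91.7) and 3 of 29 for its small subunit (10.3%, mrps-7 highest at 96.7). Elongation factor genes had 3 of 6 (50%, 11.8 to 88.2%), led by eef-1A.1 with 97.4. Initiation factor genes had 7 of 34 (20.6%), led by the eIF3 subunit gene eif-3.C with 127. Aminoacyl tRNA synthetase genes had 3 of 31 (9.68%), led by ears-2 with 105. The intervals of the rpl and rps shares overlap, and the interval of the rpl share lies above those of both mitochondrial lists and of the synthetases.

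**Figure D1:**
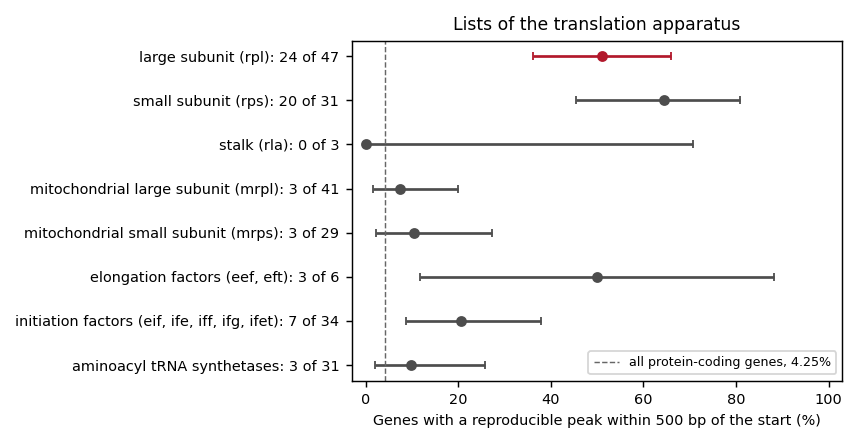
Share of genes with a reproducible peak within 500 bp of the start (horizontal axis, percent) for the large subunit and 7 other lists of the translation apparatus; bars are exact 95% binomial intervals and the dashed line is the share over all protein-coding genes. The large subunit stands at 51.1% and the small subunit at 64.5%, and the dashed line at 4.25%.

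A small number of members carried signals well above the rest. At rpl-15 the signal was 236 in replicate 1, 365 in replicate 2 and 591 in the pooled list, where it ranked 85 among all regions. It was the only rpl peak among the 100 highest, and 10 were among the 500 highest. RPL-15 is a core protein of the subunit, and its gene also hosts 2 small nucleolar RNA (snoRNA) genes. At rpl-20 the signal was 172 in replicate 1, 299 in replicate 2 and 454 pooled. At rpl-3, whose protein lies near the catalytic centre, it was 151 in replicate 1, 199 in replicate 2 and 350 pooled. These 3 genes had the highest signal of the group in both replicates. At rpl-35, whose protein lies at the tunnel exit, the signal was 50.7 in replicate 1, 150 in replicate 2 and 199 pooled, so its rank was lower in replicate 1 (382) than in replicate 2 (189). At rpl-22 it was 55.9 in replicate 1, 95.6 in replicate 2 and 150 pooled. Over the 24 peaks the median pooled signal was 98.9, with quartiles of 78.3 and 117 and a range of 59.6 to 591. The median over the 20 rps genes with a peak was 81.7 and over the 826 other protein-coding genes with a peak, where a peak shared by genes counts for each, 79.5, with quartiles of 67.3 and 104 for those others. Other protein-coding genes, here and below, are all but the rpl genes, so the 826 include the 20 rps genes.

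The next members lay close together. At rpl-43 the signal was 63.2 in replicate 1, 67.2 in replicate 2 and 132 pooled, with a summit on the far side of the gene that is described with the positions. At rpl-5, which encodes a partner of the 5S RNA, it was 40.6 in replicate 1, 73.2 in replicate 2 and 112 pooled. At rpl-17, of the tunnel wall, it was 47.6 in replicate 1, 61.9 in replicate 2 and 109.5 pooled. At rpl-41.2, which like rpl-41.1 has 66 coding bases, the fewest of the group, it was 45.7 in replicate 1, 71.8 in replicate 2 and 109 pooled. At rpl-29 it was 38.3 in replicate 1, 77.7 in replicate 2 and 106 pooled. The last 4 of these stood in opposite orders in the 2 replicates, so their order is not resolved. The other 14 reproducible peaks had pooled signals of 101 (rpl-12, of the stalk base) to 59.6 (rpl-16). Among them were the tunnel and exit genes rpl-26 (89.9) and rpl-39 (70.9), and also rpl-38 (101), rpl-21 (97.1), rpl-27 (92.1), rpl-23 (89.6), rpl-14 (89.1), rpl-36 (78.6), rpl-24.1 (77.5), rpl-6 (75.8), rpl-24.2 (72.7) and rpl-36.A (64.6).

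**Figure D2:**
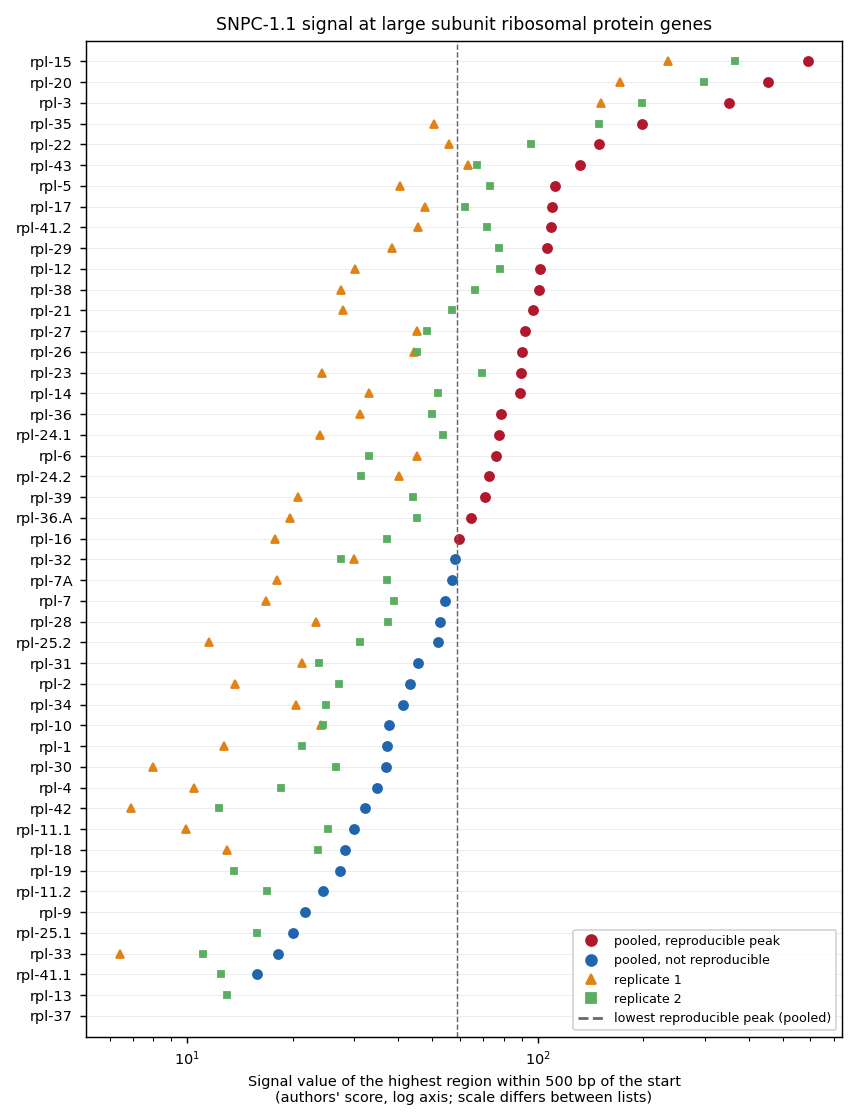
Signal of the highest region within 500 bp of the start (horizontal log axis, authors' score) for each of the 47 genes, ordered by pooled signal; circles are the pooled list, triangles replicate 1 and squares replicate 2, and the dashed line is the lowest reproducible signal, 58.8. The same 3 genes are highest in all 3 lists, with rpl-35 next to them in replicate 2, and the pooled values go on falling past the line.

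The limit of the reproducible list ran through the group at no natural gap. Just inside it stood rpl-16 with a pooled signal of 59.6, and just outside rpl-32 with 58.0, rpl-7A with 56.9 and rpl-7 with 54.3, where the lowest signal of any reproducible peak was 58.8. Of the 23 genes without a reproducible peak, 21 had a pooled region, with signals of 15.8 at rpl-41.1 to 58.0 at rpl-32 and a median of 36.9. Over all 45 pooled regions of the group the median was 64.6, against 24.5 over 7488 other protein-coding genes with one. Genes of well known parts of the subunit were among the weaker ones, such as rpl-10 next to the catalytic centre (37.7), rpl-4 of the tunnel (34.8), and rpl-31 (45.4) and rpl-19 (27.4) of the exit. Replicate 1 had no region at rpl-9, rpl-11.2, rpl-13, rpl-19, rpl-25.1, rpl-37 and rpl-41.1. Only rpl-13 and rpl-37 had no pooled region. The nearest pooled summit of rpl-13 lay 502 bp from its start, with a signal of 21.1, and replicate 2 had a region 226 bp upstream with a signal of 13.0. At rpl-37 no list had a region, and the nearest pooled summit was 3700 bp away. Of the 36-base words within 500 bp of its start, 82.8% occur once in the genome, against 100% at 41 of the 47 genes, and the lowest shares were 71.9% at rpl-7A and 82.7% at rpl-2. How reads with several matches were treated is not given in the sources used here, so the part of repeated sequence at these 3 genes was not tested.

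Gene pairs with the same protein number differed in some cases and lay close in others. rpl-41.2 had a pooled signal of 109 and rpl-41.1, which lies upstream of it on the same strand with 700 bp between them, 15.8 and no region in replicate 1. rpl-25.2 had 51.9, and rpl-25.1 20.02 with no region in replicate 1. rpl-11.1 on chromosome V had 29.9 and rpl-11.2 on chromosome X 24.5, and neither had a reproducible peak. rpl-24.1 had 77.5 and rpl-24.2 72.7, and both had one. RPL-24.2 is related to the yeast ribosome assembly factor Rlp24. The lettered names are different proteins: rpl-7 had 54.3 and rpl-7A 56.9, and rpl-36 had 78.6 and rpl-36.A 64.6. Both rpl genes of chromosome X lacked a reproducible peak, on a chromosome where 0.879% of protein-coding genes had one. On the autosomes the share of members with a peak ran from 2 of 5 (chromosome V) and 6 of 15 (I) to 7 of 9 (III). Over all protein-coding genes the shares were 3.14% on V, 5.87% on I and 6.74% on III. Chromosomes V and III had the lowest and the highest of these background shares among the autosomes.

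The summits lay upstream of the annotated starts, as at most other protein-coding genes with a peak, and at a greater median distance. Of the 24 summits, 23 were upstream, a side on which 86.8% of the summits at 826 other protein-coding genes also lay. The rpl summits had a median of 287.5 bp and quartiles of 352 and 230 bp upstream. At the 20 rps genes the median was 264 bp upstream, and at the 826 other protein-coding genes 185 bp, with quartiles of 306 and 87.5 bp. Between 200 and 500 bp upstream lay 79.2% of the rpl summits and 46.9% of those at other genes. The position repeated between replicates, with medians of 300.5 bp upstream in replicate 1 and 294 bp in replicate 2, and at single genes the summits of the replicates differed by a median of 23 bp (2 to 149). The summit farthest upstream was at rpl-35, 438 bp before the start, and it was 433 bp before it in replicate 1 and 438 bp in replicate 2. Summits close to the start were the exception: rpl-27 (37 bp upstream), rpl-12 (66 bp), rpl-16 (93 bp) and rpl-24.2 (167 bp) were the only ones within 200 bp. The replicates differed at rpl-27, with 48 bp downstream in replicate 1 and 36 bp upstream in replicate 2. At rpl-16 they had 189 and 40 bp upstream, whereas at rpl-12 (64 and 33 bp) and rpl-24.2 (161 and 170 bp) they lay closer. At rpl-43 the summit lay 441 bp downstream of the start and 166 bp beyond the 3′ end of this short gene, 33 bp upstream of the start of xrn-2, which encodes an exoribonuclease. The replicates placed it 448 and 403 bp downstream.

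**Figure D3:**
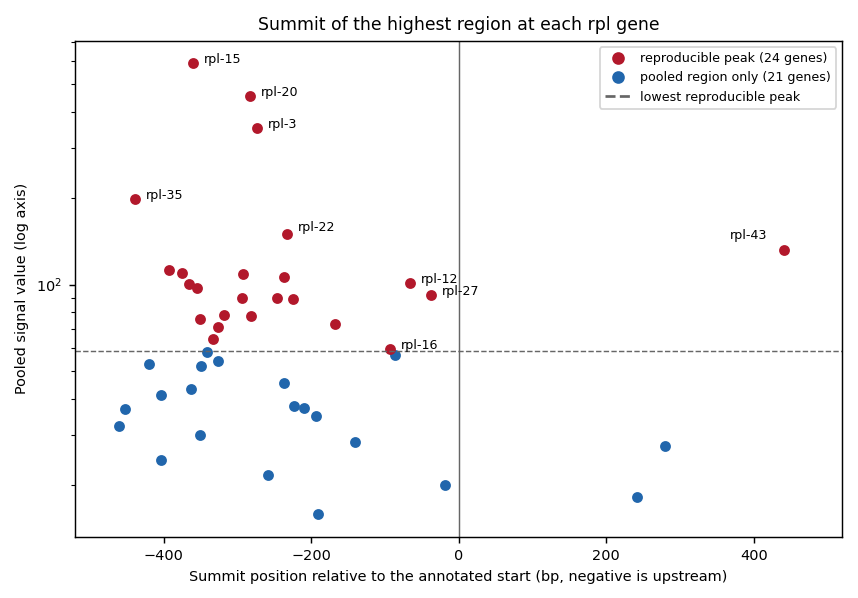
Position of the highest pooled summit relative to the annotated start (horizontal axis, bp, negative is upstream) against its signal (vertical log axis) for the 45 genes with a pooled region; the dashed line is the lowest reproducible signal. The summits lie mainly between 200 and 460 bp upstream, 42 of the 45 are upstream, and of the 3 downstream rpl-43 lies farthest, at 441 bp, and is the one with a reproducible peak.

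The annotated starts of this group often followed the letters of a splice acceptor. TTTCAG ended at the base before the annotated start in 23 of the 47 rpl genes (48.9%), and in 12.3% of 19973 protein-coding genes. The last 2 bases of a splice acceptor, AG, stood there in 38 of 47 (80.9%) and in 27.6%. The acceptor letters were found at 14 of the 24 genes with a reproducible peak and at 9 of the 23 without. Among the 24, the median distance was 287.5 bp upstream at the 14 genes with TTTCAG there and 307.5 bp at the 10 without. The gap was smaller than the spread over genes. Of these 10, rpl-5, rpl-6, rpl-24.1, rpl-24.2, rpl-35 and rpl-36.A still had AG there, and rpl-43 had its summit downstream. The 2 sets therefore do not divide genes with an acceptor at the start from genes without one. Distances to the place where transcription begins were not measured.

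Under the summits, the rpl peaks held few of the letters that marked small nuclear RNA peaks. The 10 words of 8 bases found at the most reproducible peaks near genes annotated as snRNA, such as GGGTTCCG and GCGGGTTT, were looked for on either strand within 50 bases of the summit. They were present at 1 of 24 rpl peaks, at 1 of 17 rps peaks not shared with an rpl gene, at 8.28% of 616 peaks of other protein-coding genes, at 43 of the 73 snRNA peaks, where they were chosen, and at 0.679% of windows 1000 bp from a summit. TATAAA, the letters of a TATA box, was found on either strand within 50 bases of the summit at 0 of 24 rpl peaks, where a count of 0 allows a share of up to 12.5% (3 peaks of the 24), and at 7.14% of those 616 peaks. The words of the rpl peaks themselves were different ones: GGGTCTCG and GGTCTCGC at 6 peaks each, and AAAGGCGC, AACGAGTG, TCGCTGCG and TGGGTCTC at 5 each, several of them overlapping in sequence. Any of the 10 was found at 15 of the 24 peaks on which they were chosen. In sets that played no part in the choice, they were found at 7 of the 21 weaker rpl regions, 5 of the 17 rps peaks, 18.0% of the 616 peaks of other protein-coding genes, 3 of 73 snRNA peaks and 1.83% of the windows 1000 bp away. The 616 include the 17 rps peaks, so these 2 sets are not separate. The median share of G and C was 48.5% at the rpl peaks and 43.6% at those 616. A match of letters is a description and marks no binding site.

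Many of these peaks stood between 2 genes that point away from each other. At 13 of the 24, the start of another protein-coding gene was also within 500 bp of the summit, and at 11 there was none. Of the 13, rpl-43 is the exception, since xrn-2 lies on its strand, and at the others the 2 genes point away from each other. The same share over other peaks is not given here. The median signal was 101 at the 13 shared peaks and 92.1 at the 11 others. The rpl start was the nearest start of any gene at 14 of the 24. At rpl-24.1 the nearest was that of a piRNA gene, 21ur-11631, 45 bp from the summit. At rpl-5 (28 bp), rpl-17 (41 bp), rpl-36.A (11 bp) and rpl-39 (35 bp) it was that of a gene annotated as ncRNA. At rpl-20, rpl-21, rpl-22, rpl-26 and rpl-43 it was that of another protein-coding gene. At 3 peaks the other gene was a small subunit gene, so that 1 summit stood for a protein of each subunit: rpl-24.1 with rps-10 (282 and 328 bp from the starts), rpl-36 with rps-14 (318 and 345 bp) and rpl-39 with rps-30 (326 and 173 bp). The peak of rpl-22 lay 205 bp from ify-1, the securin gene, that of rpl-26 99 bp from cpf-1, which encodes a subunit of a cleavage and polyadenylation factor, and that of rpl-12 327 bp from lin-54, which encodes a DNA-binding protein of the DREAM complex. The peak of rpl-36.A lay 300 bp from nuo-1, a gene of respiratory complex I. With an upstream neighbour facing away from it were 14 of the 24 genes with a reproducible peak and 17 of the 23 without. Which of the genes near it a summit belongs to was not tested. Of the 11 peaks with no other protein-coding start, the highest were rpl-3 (350.3) and rpl-35 (199). snoRNA genes lie inside 4 of the 24 genes with a peak and inside 4 of the 23 without, and at rpl-24.1 and rpl-26 the start of such a gene was within 500 bp of the summit. By annotation, 18 of the 24 summits were intergenic, 5 lay in a noncoding gene and 1, at rpl-24.2, in an intron of C03D6.1.

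Reproducible peaks were also counted near the 3′ ends of the large subunit genes, a measure added after the coverage around the genes had been seen. Of the 47 genes, 14 (29.8%) had a reproducible summit within 500 bp of the annotated 3′ end and more than 500 bp from their own start, against 2.62% of all protein-coding genes and 2.68% of the 9871 that are at most 2000 bp long. The rpl genes are short, with a median length of 753 bp against 2026 bp over all protein-coding genes. At the rps genes the count was 14 of 31 (45.2%). In the pooled list it was 35 of the 47 rpl genes, against 37.2%. At 13 of the 14 the summit lay past the end, with a median of 111 bp (from 17 bp inside at rpl-3 to 408 bp past at rpl-41.1), and 11 lay between 90 and 160 bp past it. These positions are those of the reproducible list, and the replicates did not repeat all of them. Relative to the end, replicates 1 and 2 had 99 and -20 bp at rpl-5, and 101 and -19 bp at rpl-3. At rpl-35 they had 135 and 283 bp, whereas at rpl-1 they lay close, at 104 and 107 bp. Among the 509 other protein-coding genes with such a summit, 81.5% lay past the end, with a median of 132 bp. Of these 509, 19.8% lay in the band of 90 to 160 bp. Over the 14 rps genes with such a summit the median was 99.5 bp, and 6 lay in that band. The band was chosen after the rpl values had been seen, so the rpl count in it is no test. The highest in the pooled list was at rpl-11.1, with a signal of 71.0 in replicate 1, 62.1 in replicate 2 and 144 pooled, 102 bp past the end in replicate 1 and 97 bp in replicate 2. At rpl-4, the highest of the 14 in replicate 2, it was 37.8 in replicate 1, 81.0 in replicate 2 and 121 pooled, 120 bp past the end.

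Of the 14, 8 had a start peak as well (rpl-3, rpl-5, rpl-12, rpl-15, rpl-20, rpl-23, rpl-26 and rpl-35) and 6 did not (rpl-1, rpl-4, rpl-7A, rpl-11.1, rpl-31 and rpl-41.1). Together 30 of the 47 genes had a reproducible peak at the start, the 3′ end or both, and 17 had neither. The same share over all protein-coding genes was not counted, so these counts have no background. The 3′ peak of rpl-41.1 and the start peak of rpl-41.2 are the same peak, which here counts for both genes. At 8 of the 14 the start of another protein-coding gene lay within 500 bp of the summit: bcs-1 behind rpl-5, tag-115 behind rpl-12, K11H12.1 behind rpl-15, cyc-2.1 behind rpl-20, swp-1 behind rpl-23, suf-1 behind rpl-26, Y71F9AL.12 behind rpl-1 and, behind rpl-41.1, rpl-41.2 with its own start peak. Without these 8, 6 of the 47 genes remained, and the share of all protein-coding genes was not counted under that rule. Whether the 8 belong to the 3′ end or to the other start was not tested. At 5, no start of any gene lay within 500 bp (rpl-3, rpl-4, rpl-7A, rpl-11.1 and rpl-35). The windows of 3 of these are given because no annotated start lies near them. They hold no capitals, since none of the 10 words lies in them.
rpl-11.1 3′ peak window, chrV:3585160-3585260, - strand: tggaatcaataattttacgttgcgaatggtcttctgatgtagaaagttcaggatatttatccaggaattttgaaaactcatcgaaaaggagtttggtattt
rpl-7A 3′ peak window, chrIV:4388990-4389090, - strand: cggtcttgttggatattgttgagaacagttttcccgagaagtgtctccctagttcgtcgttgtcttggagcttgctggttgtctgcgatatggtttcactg
rpl-35 3′ peak window, chrIII:7855731-7855831, + strand: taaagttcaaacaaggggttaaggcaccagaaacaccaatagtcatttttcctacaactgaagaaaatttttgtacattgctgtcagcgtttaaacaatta
None of the 13 peaks near rpl 3′ ends that were not also a start peak held any of the 10 words of the start peaks, and a count of 0 of 13 allows a share of up to 23.1%. Their median share of G and C was 37.6%, against 48.5% at the start peaks. The origin of the regions at 3′ ends was not tested.

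**Figure D4:**
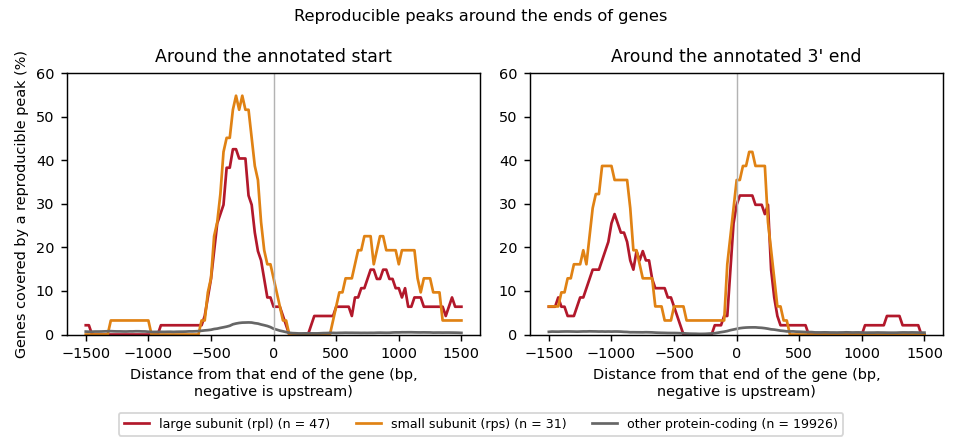
Share of genes covered by a reproducible peak (vertical axis, percent) at each distance from the annotated start (left) and 3′ end (right), in bp with negative values upstream, for 47 rpl genes, 31 rps genes and 19926 other protein-coding genes. The rpl curve is highest at 42.6% of genes 300 bp upstream of the start and has a second maximum of 31.9% at 125 bp past the 3′ end, where the other protein-coding genes stay below 3%.

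The replicates gave similar counts and a similar order. Replicate 1 had a region at 40 of the 47 starts, against 35.8% of all protein-coding genes, and replicate 2 at 45, against 34.8%. At 40 genes both had one, and at 37 of these the 2 regions overlapped. Among the 1500 regions of highest signal in each replicate, 20 genes had one in replicate 1 (background 3.87%), 22 in replicate 2 (4.24%) and 17 in both (2.48%). All 17 were among the 24. Of the other 7, rpl-6 and rpl-24.2 were among the 1500 highest of replicate 1 alone, with ranks of 469 and 603 in replicate 1 and 1999 and 2211 in replicate 2. The genes rpl-23, rpl-24.1, rpl-36.A and rpl-39 were among those of replicate 2 alone. rpl-16 was in neither, at ranks 3113 and 1591, and rests on the pooled reads. Conversely, rpl-32 at rank 1018 in replicate 1 and rpl-7 at rank 1462 in replicate 2 were not reproducible peaks. Across the 40 genes, which share the same 2 libraries, the ranks of the replicates had a Spearman correlation of 0.820 (Pearson 0.890 for log10 signal). Within the 24 the Spearman value was 0.597, and over 4232 other protein-coding genes 0.564. At the 3′ ends, 15 genes had a region among the 1500 highest of replicate 1 (background 3.04%), 17 in replicate 2 (2.60%) and 10 in both. The background for both replicates was not counted there. Of the 31 rps genes, 12 had such a region in replicate 1 and 11 in replicate 2.

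**Figure D5:**
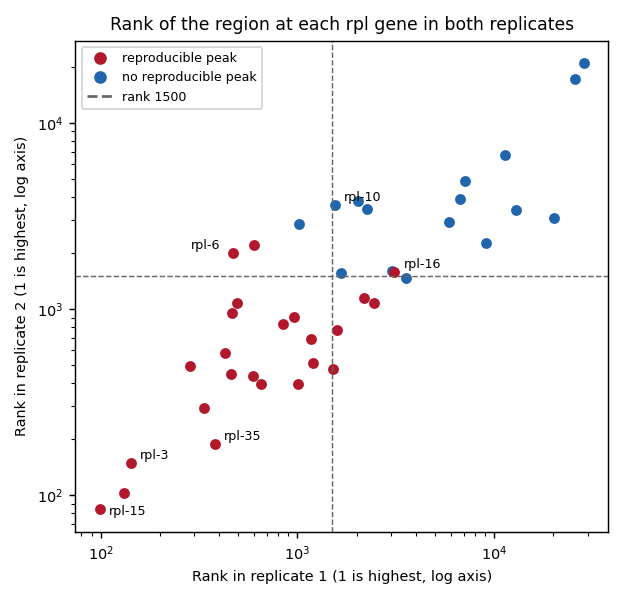
Rank of the region at each rpl gene in replicate 1 (horizontal log axis) and replicate 2 (vertical log axis) for the 40 genes with a region in both, with 1 the highest; dashed lines are at rank 1500. The 17 genes in the lower left box are among the 1500 highest of both replicates, rpl-6 and its neighbour rpl-24.2 lie above it, and rpl-16 lies outside both limits.

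Region width followed the signal. Of the 24 regions, 21 had the width of 320 bp shared by 1332 of the 1500 reproducible peaks, and their summit was the middle of the region. The 3 strongest were narrower, with 196 bp at rpl-15, 172 bp at rpl-20 and 116 bp at rpl-3. Over the whole list, 145 peaks were narrower than 320 bp, with a median signal of 539 against 81.2 at the 320 bp peaks. The summits of the replicates differed by 11 bp at rpl-15, 23 bp at rpl-20 and 17 bp at rpl-3, against the median of 23 bp over the 24.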

How the data were processed

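ChIP-seq peak lists of 2 biological replicates were analysed. Per the labels, chromatin was sonicated and both ce11 and ce10 were used as assemblies. The aligner, the caller and the limit of reproducibility were not given in the sources used here. Per the text files deposited with the lists, the authors called regions on each replicate and on the pool against a control and kept those that were reproducible between replicates. The signal column holds the authors' score per region, as deposited, and the summit is the deposited offset from the region's start. On ce11 the 1500 reproducible peaks were the 1500 pooled regions of highest signal. The p and q columns and the ce10 lists were not used, since the annotation has ce11 coordinates.

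Summits were matched to annotated 5′ ends within 500 bp with Python 3.11.15, NumPy 2.4.6, SciPy 1.17.1 and Matplotlib 3.10.9, and positions are 1-based. Counting was tested on simulated regions. Genes were named by a rule: the 10 highest peaks, paralogues, members outside the reproducible list by count with the 3 highest and the lowest, members with no region, and neighbours; further members named with values were chosen after their values were seen. Members and lists were chosen with earlier results of these data known. Alternatives were window, start, summit, neighbour, list depth and single replicates; those for 3′ ends were chosen after seeing the data. There is 1 group, so no test between samples was made.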

Additional observations from a re-analysis of the deposited data

How the results depend on the processing

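The count of 24 rpl genes with a reproducible peak stayed between 17 and 27 under 1000 bp, other annotated starts, no small RNA neighbours, summit choices, the 750 highest peaks and single replicates. It was 4 within 200 bp and 14 when a peak was given only to its nearest start. The 45 genes with a pooled region became 14 within 200 bp. The 17 genes among the 1500 highest of both replicates became 2 within 200 bp, 9 with the nearest start and 10 with the 750 highest. The median position of -287.5 bp was -79.5 within 200 bp, -273 within 1000 bp, -282.5 with the nearest or any transcript start, -293 without small RNA neighbours or with region middles, and -300.5 to -297.5 with single replicates. The median signal of 98.9 was 82.4 within 200 bp, 101 within 1000 bp, 96.4 with the nearest start and 100.9 without small RNA neighbours. The 14 genes with a 3′ peak became 6 without summits near a protein-coding start, and 13 to 17 otherwise. These follow from which summits each setting admits. No paired analysis was possible because there is 1 group.

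The signal has no stated scale, depth is unknown, and a control was not analysed here. Positions rest on annotated starts, and 320 bp regions set how finely summits are placed.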
